A study of Homo sapiens with 4 samples.

Results

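The subject is the set of 9 genes that build and load HLA class I molecules: HLA-B, HLA-C, HLA-E, B2M, TAP1, TAP2, TAPBP, NLRC5 and ERAP1. They were taken by name from the 64252 rows of the deposited gene count table, and each had 1 row. The libraries came from SK-N-BE(2) cells, a long-established line grown from a human neuroblastoma in which the oncogene MYCN is amplified. The shIGF2BP3 group carried a short hairpin RNA against IGF2BP3 (2 libraries) and the shControl group carried a control hairpin (2 libraries), so cells of both groups had been transfected with a hairpin. The protein IGF2BP3 binds mRNAs that carry the m6A mark, and the study's title asks about its hold on E2F2 mRNA, so class I presentation was outside its stated question. The sources used here do not give the time after transfection, any selection, the number of hairpin sequences or whether replicates were separate cultures. The p-values therefore rest on the spread among 4 libraries, mostly as the fit pools it across genes, and that spread may be technical.

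Class I molecules show short peptides from inside the cell to cytotoxic T cells and natural killer cells. A heavy chain (HLA-B, HLA-C, HLA-E) pairs with beta-2 microglobulin (B2M), peptides cut by the proteasome enter the endoplasmic reticulum through the TAP1/TAP2 transporter, tapasin (TAPBP) holds the empty molecule at the transporter, and the aminopeptidase ERAP1 trims the peptides. NLRC5 is the transactivator of class I genes, and interferons raise most genes of the pathway. Neuroblastoma cells, above all those with amplified MYCN, are known for low surface class I.

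Of the members, 6 lie in the major histocompatibility complex on chromosome 6 (GENCODE release 29, GRCh38): HLA-E from 30489467 to 30494205 on the plus strand, and on the minus strand HLA-C from 31268749 to 31272130, HLA-B from 31269491 to 31357188, TAP2 from 32821833 to 32838780, TAP1 from 32845209 to 32853978 and TAPBP from 33299694 to 33314387. B2M lies on the plus strand of chromosome 15 from 44711487 to 44718877, NLRC5 on the plus strand of chromosome 16 from 56989485 to 57083531, and ERAP1 on chromosome 5 (minus strand) from 96760810 to 96808100. All are annotated as protein-coding.

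The promoters are shown because members on 4 chromosomes were compared and their known regulators act there. RefSeq promoters (GRCh38.p14, 250 bases before to 50 bases after the start) matched 7 of the 9 members, with 9 entries. HLA-E and NLRC5 had no entry. HLA-B and HLA-C hold a CRE-type word and CCAAT boxes at nearly the same distances. The capitals in these windows from position -180 to -31 mark a kappaB-type word (GGGNNTTNCC, matched in HLA-B), the CRE-type word TGACG, and CCAAT boxes on either strand (CCAAT or ATTGG).
HLA-B, minus strand of chr6:31357210-31357359: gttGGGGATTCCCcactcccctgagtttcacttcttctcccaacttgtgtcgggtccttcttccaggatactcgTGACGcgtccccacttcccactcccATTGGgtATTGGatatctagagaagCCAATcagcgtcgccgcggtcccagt
HLA-C, minus strand of chr6:31272123-31272272: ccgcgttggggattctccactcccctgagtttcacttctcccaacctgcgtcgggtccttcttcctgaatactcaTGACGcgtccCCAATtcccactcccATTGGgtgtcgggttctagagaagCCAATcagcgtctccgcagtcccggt

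The other 5 matched members held the core word of an interferon response element, GAAANNGAAA on either strand, which is in capitals in these windows of 30 bases. Neighbouring matches overlap each other in B2M, TAP1 and TAPBP. HLA-B and HLA-C held no exact match, and looser forms of the element were not sought.
B2M, plus strand of chr15:44711363-44711392: gagactctaaGAAAAGGAAACTGAAAacgg
TAP1, minus strand of chr6:32853819-32853848: aggcggccgcTTTCGATTTCGCTTTCccct
TAP2, minus strand of chr6:32838778-32838807: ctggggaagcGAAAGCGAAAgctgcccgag
TAPBP, minus strand of chr6:33314079-33314108: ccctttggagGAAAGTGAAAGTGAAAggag
ERAP1, minus strand of chr5:96807924-96807953: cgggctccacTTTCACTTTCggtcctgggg

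That word stood in 3.57% of 35116 RefSeq promoter windows of the same length. The kappaB-type word stood in 5 of the 7 matched members (HLA-B, B2M, TAP1, TAPBP and ERAP1), against 5.68% of all promoters. TGACG was found in 4 (HLA-B, HLA-C, B2M and TAP2), against 24.6%, and CCAAT in 5 (HLA-B, HLA-C, B2M, TAP1 and ERAP1), against 34.6%. A member was counted if any of its entries matched, while the percentages are per promoter window, so the scales differ. These are matches of letters only, and factor binding was not measured in these libraries.

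**Figure D1:**
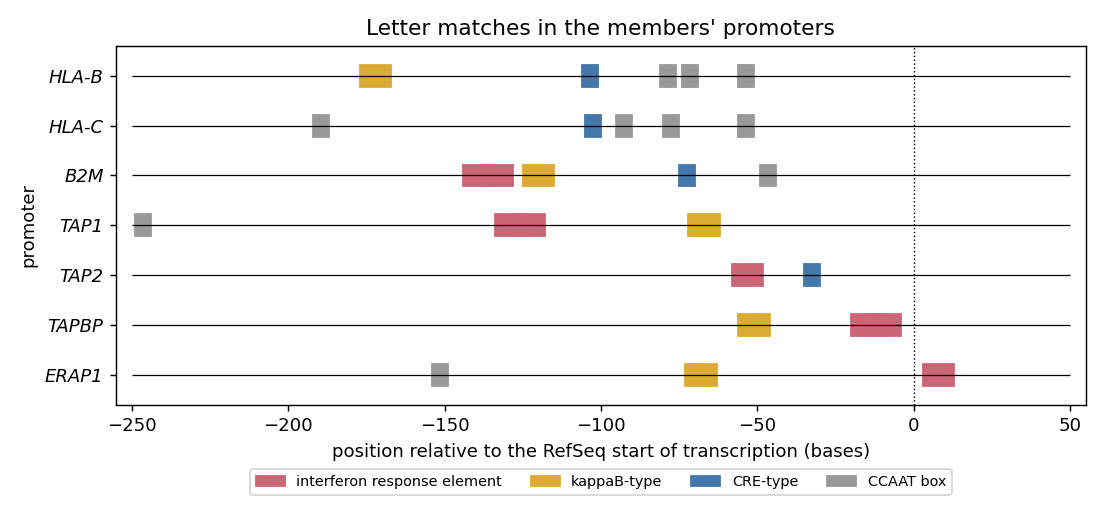
Letter matches in the promoters of the 7 members with a RefSeq entry, drawn by distance in bases from the start of transcription (dotted line), with 1 line per promoter and 1 colour per word. The first entry is drawn for TAP1 and ERAP1, which have more than 1. Interferon response words stand in B2M, TAP1, TAP2, TAPBP and ERAP1, and HLA-B and HLA-C share a CRE-type word and a CCAAT box at nearly the same distance.

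Total counts per library lay between 26755695 and 31946756. IGF2BP3 had 4215 and 4347 counts in shControl and 813 and 875 in shIGF2BP3, a log2 fold change of -2.28 (SE 0.09, adjusted p = 1.655e-12), so the target was lower in both libraries labelled with its hairpin. All 11 neuroblastoma markers were tested, of which 1 rose and 9 fell, and their summed level was 7900 to 8200 in shControl and 5955 to 6361 in shIGF2BP3 (CPM, the count relative to the library total after TMM scaling). Leukocytes carry much class I, and 15 leukocyte markers summed to 2.97 to 4.20 CPM in shControl and 6.01 to 6.50 CPM in shIGF2BP3, with CD3E, CD3D, CD2, MS4A1, LYZ and TYROBP at 0 counts in every library. The gene PTPRC, which marks all leukocytes, had 20 and 17 counts in shControl and 0 and 2 in shIGF2BP3. Markers of fibroblasts (9 genes) summed to 831 to 865 CPM in shControl and 1037 to 1053 CPM in shIGF2BP3, and those of Schwann cells and glia (7 genes) to 16.1 to 16.3 and 73.4 to 81.9 CPM, with FAP and SOX10 at 0 in every library. NGFR made up most of the glial rise, with 10.2 ± 0.188 against 68.3 ± 6.18 CPM (SD, n = 2 each). Whether these marker shifts have a part in the results on class I genes was not tested.

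In the knockdown libraries 5 of the 9 members rose: HLA-C, B2M, TAP2, ERAP1 and NLRC5. No member fell. HLA-E, TAP1 and TAPBP did not pass the test, and HLA-B had too few counts to be tested. Across all 19767 tested genes 51.5% passed, 25.9% higher and 25.6% lower, so a call alone was common in these data. The same shares are the background for the counts of all other gene lists. The median log2 fold change was 0.64 over the 8 tested members and 0.0094 over all tested genes. The groups did not overlap for 6 of the 8 tested members, against 74.5% of all tested genes. Each tested member had at least 20 counts in every library, so the low-count filter did not select those high in 1 group. A higher level in bulk RNA can mean more RNA per cell or more cells with the RNA, and these libraries cannot tell the 2 apart.

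**Figure D2:**
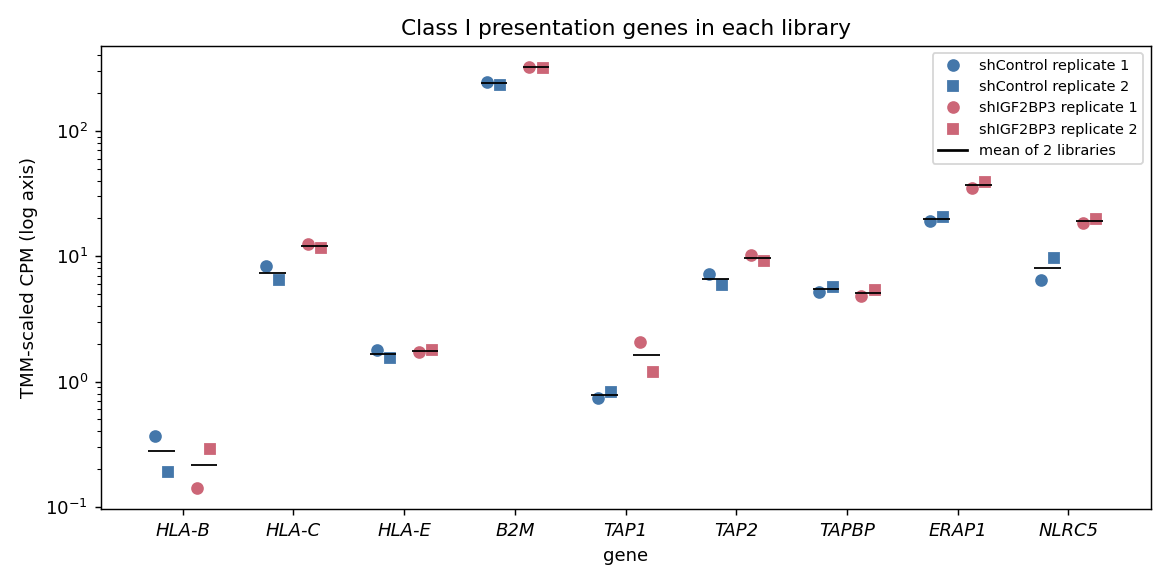
Level of each of the 9 members in each library, as TMM-scaled CPM on a log axis, with circles and squares for replicates 1 and 2 and a line at the mean of 2 libraries. B2M stands far above the rest at 232 to 323 CPM, and HLA-B lies below 0.4 CPM in all 4 libraries.

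Of the 3 heavy chains 1 rose, 1 did not pass and 1 was not tested, and differences between them were not tested. HLA-C, a classical heavy chain that also engages receptors of natural killer cells, stood at 8.32 and 6.45 CPM in shControl and at 12.5 and 11.7 CPM in shIGF2BP3. Both knockdown libraries lay above both controls. Its log2 fold change was 0.72 (SE 0.18, 95% interval 0.34 to 1.11, adjusted p = 0.00295), or 1.65-fold. Here and below, adjusted p-values come from the quasi-likelihood test of edgeR, adjusted by Benjamini-Hochberg over all tested genes, unless another tool is named. The log2 fold change of HLA-C was 0.52 without shControl replicate 2, where the call was narrow (adjusted p = 0.0493).

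HLA-E presents signal peptides of other heavy chains to inhibitory receptors of natural killer cells. It had 48 counts in each shControl library and 49 in each shIGF2BP3 library, or 1.78 and 1.53 CPM against 1.73 and 1.79 CPM. The groups overlapped, and the log2 fold change of 0.09 (SE 0.36, adjusted p = 0.857) had a 95% interval from -0.68 to 0.86. A change of the size seen in HLA-C lies inside that interval, so the test does not show that HLA-E differed from it.

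HLA-B, a classical heavy chain, had 10 and 6 counts in shControl and 4 and 8 in shIGF2BP3. Its levels of 0.371, 0.192, 0.141 and 0.292 CPM lay just above the 0.0958 to 0.111 CPM that 3 counts are worth in these libraries. The ratio of shIGF2BP3 to shControl was 0.783, with an exact 95% counting interval from 0.338 to 1.76 that covers counting error only. A difference was not detectable at this depth.

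Reads of heavy chains are hard to place. The annotated span of HLA-B overlaps that of HLA-C by 2640 bases on the same strand, and 6.71% of the words of 50 bases in the longest coding transcript of HLA-C also stand in transcripts of other genes, 69 of these 101 words in a single other HLA gene. The share was 2.54% for HLA-B and 5.13% for HLA-E, and 0% for B2M, NLRC5 and ERAP1. TAPBP shared 5.99% with 380 other genes and TAP1 shared 1.07%. HLA alleles vary between people, so reads of this line can also fit the reference alleles poorly. In addition, 7661 rows of the table, with 1.6% to 1.8% of the counts, had no name in the tables used here. Whether any of them are further copies of chromosome 6 members was not settled, so the levels of HLA-B, HLA-C, HLA-E, TAP1, TAP2 and TAPBP may be too low.

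B2M, the light chain shared by all class I molecules, rose by 0.43 on the log2 scale (SE 0.06, adjusted p = 1.96e-05), or 1.35-fold. Its levels were 245 and 232 CPM in shControl and 323 and 319 CPM in shIGF2BP3, from 6602 to 9145 counts. The gap between the groups was far wider than the gap within either one. B2M had the smallest fold change and the smallest SE of the 5 members that rose, and left-out libraries moved it only between 0.37 and 0.47.

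Of the 3 genes of the peptide transporter and its partner tapasin, 1 rose and 2 did not pass, and differences between them were not tested. TAP2, a subunit of the transporter, stood at 7.24 and 5.94 CPM in shControl and 10.1 and 9.15 CPM in shIGF2BP3. The groups did not overlap, and TAP2 rose by 0.56 on the log2 scale (SE 0.19, adjusted p = 0.0224). This is the least secure of the 5 calls, since it was lost in 3 settings. The adjusted p was 0.0772 by the Wald test of DESeq2, and 0.190 without shControl replicate 2 and 0.128 without shIGF2BP3 replicate 1 by edgeR. Of the words of 50 bases in its longest coding transcript 35.8% also stand in the overlapping gene AL669918.1, which had 0 counts in all 4 libraries.

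TAP1, the other transporter subunit, stood at 0.743 and 0.831 CPM in shControl and 2.08 and 1.20 CPM in shIGF2BP3. Both knockdown libraries were higher, but they differed from each other by more than the lower one differed from the controls. The log2 fold change of 1.06 (SE 0.46, unadjusted 95% interval 0.09 to 2.03) did not pass the test (adjusted p = 0.0639). One library decided its size: the value was 0.61 without shIGF2BP3 replicate 1 and 1.40 without shIGF2BP3 replicate 2, where it passed (adjusted p = 0.0340).

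TAPBP stood at 5.16 and 5.72 CPM in shControl and 4.84 and 5.39 CPM in shIGF2BP3. The groups overlapped, and the log2 fold change was -0.09 (SE 0.23, adjusted p = 0.756). Its 95% interval, from -0.57 to 0.38, leaves out a rise of the fitted size of any of the 5 members that rose, but the differences between these genes were not tested. TAPBP, TAP1 and the rising genes B2M, TAP2 and ERAP1 all hold the interferon response word shown above. HLA-C, which rose, holds no exact match to it, and looser forms were not sought. Whether the word has a part in these changes was not tested.

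ERAP1 trims peptides in the endoplasmic reticulum to the length that class I molecules hold. Its levels were 19.0 and 20.5 CPM in shControl and 35.01 and 39.1 CPM in shIGF2BP3, so both knockdown libraries were well above both controls. ERAP1 rose by 0.91 on the log2 scale (SE 0.12, 95% interval 0.66 to 1.15, adjusted p = 3.44e-06), or 1.87-fold.

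NLRC5, the transactivator, had the highest fold change of the members past the test, at 2.33-fold. It stood at 6.50 and 9.62 CPM in shControl, a wide spread for replicates, and at 18.4 and 19.7 CPM in shIGF2BP3. Both knockdown libraries were above both controls by more than that spread. NLRC5 rose by 1.22 on the log2 scale (SE 0.17, 95% interval 0.85 to 1.59, adjusted p = 1.255e-05), and by 0.98 without shControl replicate 1 and 1.53 without shControl replicate 2.

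**Figure D3:**
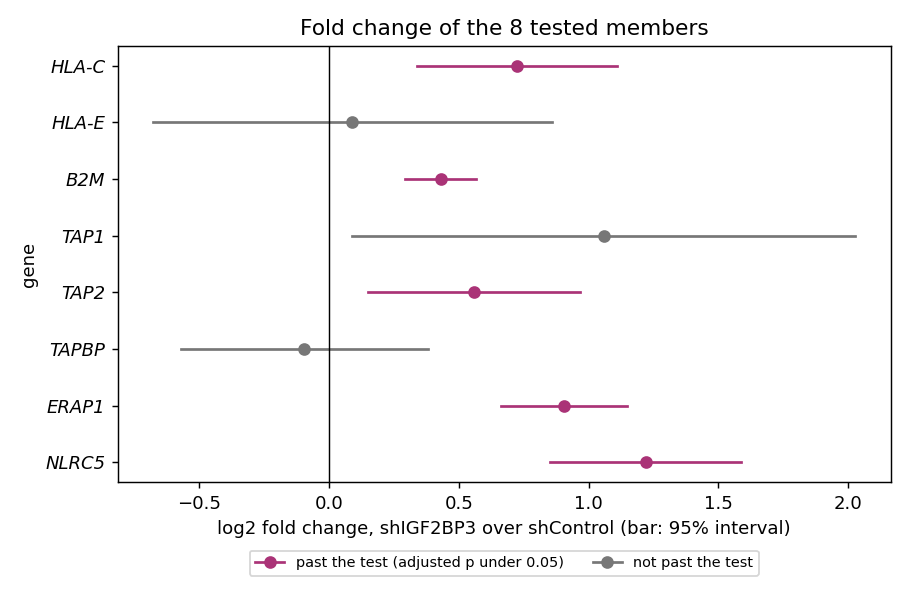
Log2 fold change of shIGF2BP3 over shControl for the 8 tested members, with unadjusted 95% intervals from edgeR's quasi-likelihood fit and colour for genes past the test. NLRC5 and ERAP1 lie farthest to the right among those past the test, the wide bar of TAP1 ends near 0, and TAPBP and HLA-E span 0.

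**Figure D4:**
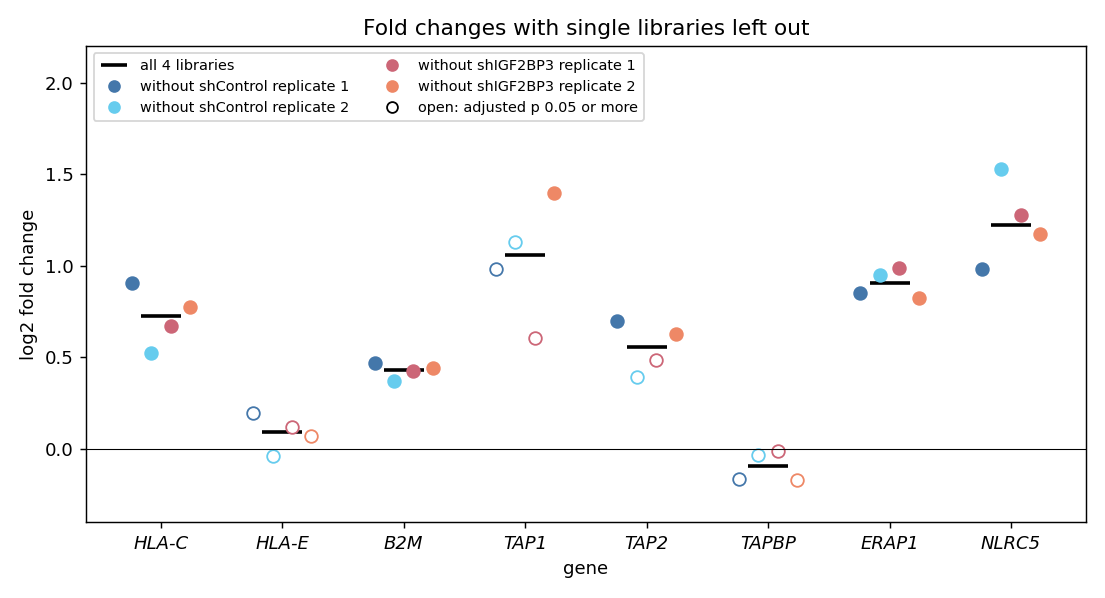
Log2 fold change of the 8 tested members with all 4 libraries (line) and with each library left out (points, open where the adjusted p was 0.05 or more). HLA-C, B2M, ERAP1 and NLRC5 pass in all 4 settings, TAP2 loses its call in 2 and TAP1 gains one in 1.

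Levels of different genes were compared as CPM per kilobase of annotated exon, a rough scale because it counts exons that these cells may not use. In shControl B2M stood first at 39.2 ± 1.58 (SD, n = 2), followed by HLA-C at 2.95 ± 0.526 and ERAP1 at 2.49 ± 0.136. HLA-C and ERAP1 did not differ beyond their spread. Next came TAPBP at 1.08 ± 0.0778 and TAP2 at 1.03 ± 0.144, again within their spread, and then NLRC5 at 0.651 ± 0.178 and HLA-E at 0.557 ± 0.0592, also within it. TAP1 at 0.164 ± 0.0129 and HLA-B at 0.0923 ± 0.0417 were last, so the light chain lay more than an order of magnitude above any heavy chain counted here. In shIGF2BP3 NLRC5 (1.54 ± 0.0758 CPM per kilobase) and TAP2 (1.51 ± 0.109) stood above TAPBP (1.01 ± 0.0781) and within their spread of each other, and the places of B2M, HLA-C, ERAP1, HLA-E, TAP1 and HLA-B were the same.

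Of 6 other class I chains 0 rose, 1 fell, 1 did not pass and 4 were too low to test. HLA-F had 7 and 5 counts in shControl and 1 and 3 in shIGF2BP3, CD1D had 0 and 0 against 2 and 5, and HLA-G and HFE had none. MR1, which presents vitamin metabolites, stood at 0.940 ± 0.246 against 1.31 ± 0.0551 CPM (log2 fold change 0.50, SE 0.45) and did not pass. FCGRT, a class I-like receptor that carries IgG and also pairs with B2M, fell by 0.86 on the log2 scale (SE 0.13, adjusted p = 3.10e-05), from 24.2 ± 1.09 to 13.3 ± 0.809 CPM. FCGRT thus fell while its light chain B2M rose.

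Chaperones and processing enzymes of the endoplasmic reticulum were mostly higher: 6 of 10 listed genes rose, 1 fell and 3 missed the threshold (median log2 fold change 0.24). Over all tested genes 25.9% rose and 25.6% fell. TAPBPL, a tapasin-related peptide editor, went from 5.68 and 6.39 CPM to 15.5 and 13.1 CPM and rose by 1.24 on the log2 scale (SE 0.18, adjusted p = 1.77e-05). Whether it differed from TAPBP was not tested. HM13, the signal peptide peptidase that frees the peptides HLA-E presents, rose by 0.98 (SE 0.07) from 111 ± 6.27 to 220 ± 13.8 CPM. CANX (calnexin), which folds new heavy chains, rose by 0.69 (SE 0.06), and PDIA3, a part of the loading complex, by 0.26 (SE 0.06). The 1 gene that fell was BCAP31, an export receptor (log2 fold change -0.20, SE 0.08, adjusted p = 0.0367), named after its value was seen. That call was lost whichever library was left out.

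Most genes of the peptide-making enzymes did not pass the test. Of the 7 listed genes of the immunoproteasome and its activators, 1 rose, 0 fell and 6 did not pass. That one was PSME2, a subunit of the PA28 activator, which went from 41.0 and 42.7 CPM to 58.9 and 55.7 CPM (log2 fold change 0.45, SE 0.09, adjusted p = 0.000412). The interferon-induced catalytic subunits PSMB8, PSMB9 and PSMB10 had log2 fold changes of 0.76 (SE 0.35, adjusted p = 0.0785), 0.06 (SE 0.83) and 0.08 (SE 0.20). PSMB8 and PSMB9 lie beside TAP1 and TAP2 on chromosome 6 and were scarce, with 42 to 84 and 5 to 12 counts per library. PSME1 (0.02, SE 0.09), PSME3 (0.04, SE 0.07) and the assembly factor POMP (-0.20, SE 0.11) completed the list.

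The catalytic subunits that immunoproteasomes replace were lower for 2 of 3 genes. PSMB7 fell by 0.62 (SE 0.08) and PSMB6 by 0.49 (SE 0.11) on the log2 scale, while PSMB5 stood at -0.15 (SE 0.09) and did not pass. Of 6 further peptidases, which trim or destroy peptides, 3 fell: BLMH by 0.99 (SE 0.10), LNPEP by 0.97 (SE 0.09) and THOP1 by 0.76 (SE 0.10). TPP2 (0.09, SE 0.07), LAP3 (-0.04, SE 0.08) and NPEPPS (-0.01, SE 0.07) did not pass. ERAP1 thus rose while LNPEP, a related aminopeptidase that works in endosomes, fell to 45.2 ± 2.40 from 88.5 ± 1.72 CPM.

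**Figure D5:**
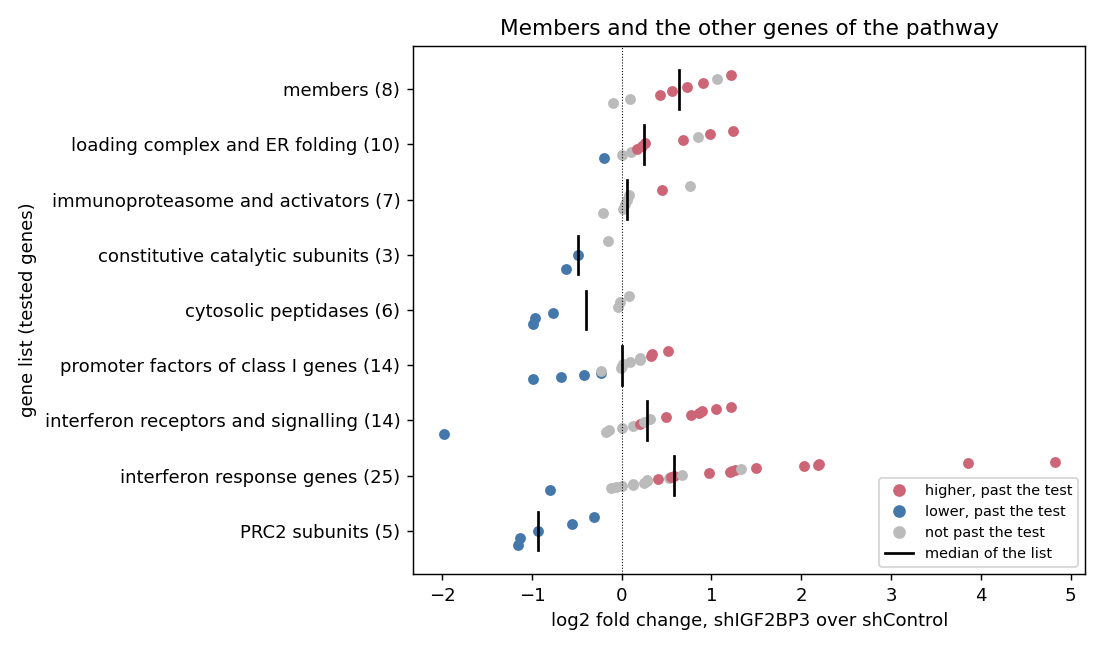
Log2 fold change of shIGF2BP3 over shControl for the 8 tested members and the tested genes of 8 other lists, with 1 point per gene, colour by call and a line at the median of the list. The members, the endoplasmic reticulum genes and the interferon response genes have medians above 0, and the constitutive catalytic subunits, the cytosolic peptidases and the PRC2 subunits have medians below 0. The list labelled cytosolic peptidases includes LNPEP, which works in endosomes.

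Factors that act at class I promoters moved both ways: 3 of 15 listed genes rose, 4 fell, 7 did not pass and 1 was not tested (median 0.01). RFX5, which binds the X box next to the CRE-type word and recruits NLRC5, rose by 0.51 (SE 0.07, adjusted p = 6.38e-06), while its partner RFXANK fell by 0.42 (SE 0.12). NFYB, a subunit of the factor that binds CCAAT boxes, fell by 0.99 (SE 0.11), and SP1 fell by 0.67 (SE 0.08). The following were named after their values were seen. NFYC rose by 0.34 and NFKB1 by 0.33, and CREB1 fell by 0.23. IRF1, the interferon-induced activator of class I and NLRC5 genes, had 95 and 86 counts in shControl and 84 and 88 in shIGF2BP3 (log2 fold change -0.01, SE 0.29). RELA (0.01, SE 0.09) and the class II transactivator CIITA (0.09, SE 0.30) also did not pass.

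Genes of interferon signalling rose in 7 of 14 cases, against 25.9% of all tested genes, with 1 lower and 6 not past the test. The median log2 fold change of the list was 0.28. IFNGR1, a chain of the interferon gamma receptor, rose by 1.22 (SE 0.08), from 46.9 and 43.2 CPM to 104.5 and 104.4 CPM. Both knockdown libraries lay far above both controls. STAT2 rose by 0.86 (SE 0.10) and IFNAR2, a chain of the type I interferon receptor, by 0.89 (SE 0.16). With single libraries left out, 5 to 7 genes of the list passed as higher.

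Of 34 interferon response genes 25 were tested, and 13 rose, 1 fell and 11 missed the threshold (median 0.58). Among all tested genes 25.9% rose and 25.6% fell. IFIT3 rose by 2.202 (SE 0.27) and IFIT2 by 2.19 (SE 0.23), both antiviral proteins, and the partners DTX3L and PARP9 by 1.26 (SE 0.10) and 1.23 (SE 0.15). OAS3, a sensor of double-stranded RNA, was the one that fell, by 0.80 (SE 0.11), and is named after its value was seen. The points farthest right in the plot of lists are SP100 (0 and 2 counts in shControl, 17 and 44 in shIGF2BP3) and IFI44 (3 and 0 against 22 and 23), picked out after their values were seen, so their fold sizes rest on very few control counts. The count of those that rose was 9 without shControl replicate 2, its lowest with a library left out. These genes and the members were compared within the same 4 libraries, so the shared direction is not independent evidence.

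All 5 listed subunits of PRC2, a histone methyltransferase complex known to silence class I and peptide loading genes in several tumours, fell. The number past the test was 4 with scaling by library size alone and in 3 of the 4 settings that left out a library. EZH2, the catalytic subunit, fell by 1.15 (SE 0.08) and RBBP7 by 1.13 (SE 0.08) on the log2 scale. SUZ12 fell by 0.93 (SE 0.08), RBBP4 by 0.55 (SE 0.07) and EED by 0.31 (SE 0.10). Among all tested genes 25.6% fell. Histone marks were not measured in these libraries, and a link between these falls and the class I genes was not tested.

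The chromosome 6 members were set beside their neighbours. From the start of HLA-E to the end of TAPBP (30489467 to 33314387) 82 other genes were tested, of which 13 were higher (15.9%), 13 were lower (15.9%) and 56 did not pass, with a median log2 fold change of 0.06. Over all tested genes 25.9% were higher and 25.6% lower. Among the 6 members of the region HLA-C and TAP2 rose, HLA-E, TAP1 and TAPBP did not pass, and HLA-B was not tested. The 3 members on other chromosomes, B2M, ERAP1 and NLRC5, all rose.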

How the data were processed

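Total RNA was made into libraries with an Illumina TruSeq kit, per the labels' protocols. The authors deposited whole-number counts per Ensembl gene, not normalized. The submitters' processing notes list HISAT2 2.2.0, StringTie and hg38, with no roles or order. Annotation release, strand setting and counting rule: not given in the sources used here, so overlapping or near-identical genes are uncertain.

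Of 64252 rows 56105 were named from a gene name table and 486 from GENCODE release 29. For a repeated symbol the row with the largest total was taken. The test was that of edgeR 4.0.16 under R 4.3.3 (filterByExpr with a smallest count of 10, TMM, robust quasi-likelihood test in its newer form, Benjamini-Hochberg adjustment over 19767 genes, threshold 0.05). With 2 libraries per group an exact permutation test cannot go below p = 0.333, so none was used. Residual degrees of freedom were 2 and the shared prior added a median of 15.06. Levels are TMM-scaled CPM, as mean ± SD over 2 libraries. Motifs were sought on both strands with Python 3.11.15.

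The members, lists and tests were chosen with earlier results of these data known. The naming rule took all members, IGF2BP3, every gene of lists with up to 7 entries and up to 4 genes of smallest p from longer lists; a few of these are not reported here. Alternatives were other scalings, no filter, DESeq2 1.42.0, limma 3.58.1 voom, a replicate block, summed rows, left-out libraries and, added after the data were seen, edgeR's older quasi-likelihood fit.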

Additional observations from a re-analysis of the deposited data

How the results depend on the processing

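The 5 members that rose kept their direction in all alternatives run, and no member passed as lower in any. The number past the test was 4 with DESeq2's Wald test and 4 to 6 with single libraries left out. TAP2 lost its call with DESeq2 (log2 fold change 0.54, adjusted p = 0.0772), and its values without single libraries ran from 0.40 to 0.70. TAP1 ran from 0.61 to 1.40 and gained a call only without shIGF2BP3 replicate 2. HLA-E ran from -0.039 to 0.19 and turned only without shControl replicate 2, far from the threshold each time. HLA-B, with 28 counts in all and no test, stood at -0.38, ran from -0.99 to 0.17 with single libraries left out, and turned its sign in 2 of 8 alternatives, without shControl replicate 1 (0.17) and without shIGF2BP3 replicate 1 (0.05). Of the 96 values of the 8 tested members under alternatives 91 kept direction and call. Without TMM the median over all tested genes was 0.09 in place of 0.009, which changed no member's call. The older edgeR fit, chosen after seeing the data, called 9894 genes and the same number of members, 5. The replicate block called 10509 genes against 10178 and 5 members. Libraries with the same number had deviations that correlated at 0.021, so equal numbers were not taken to pair libraries. Depth limits HLA-B, TAP1 and HLA-E most, and a missing call there is no evidence of an equal level.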

Other observations

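Ligands that meet natural killer and T cells beside class I moved both ways: of 12 listed genes 4 rose, 2 fell, 3 did not pass and 3 were not tested. CD276 (B7-H3), a surface antigen of neuroblastoma, rose by 1.00 on the log2 scale (SE 0.07, with an adjusted p of 1.26e-09 by edgeR), from 141 ± 8.46 to 282 ± 3.20 CPM (SD, n = 2 each). PVR, a ligand of DNAM-1 and TIGIT, rose by 0.56 (SE 0.12), and ULBP2, a ligand of the activating receptor NKG2D, rose by 1.81 (SE 0.56) from 17 and 6 counts to 40 and 38. CD47, a signal that holds off phagocytes, fell by 0.52 (SE 0.08). ULBP3 (1.12, SE 0.38) and NECTIN2 (-0.37, SE 0.15) were the other called genes, named after their values were seen. Without shControl replicate 2 the counts were 2 higher and 1 lower.

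Class II genes were near the limit of detection. Of 11 listed genes 6 were not tested, with HLA-DRA, HLA-DQA1 and HLA-DQB1 at 0 counts in every library. HLA-DPA1 rose from 2 and 2 counts to 12 and 11 (adjusted p = 0.0401, edgeR's quasi-likelihood test), a call that was lost whichever library was left out. CD74 had 12 and 14 counts against 2 and 3 (adjusted p = 0.0501), HLA-DMA 10 and 13 against 21 and 18, and HLA-DOA 64 and 94 against 55 and 64, and none of these 3 passed.

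Among marker genes, CD68, a lysosomal protein used as a macrophage marker, had 8 and 7 counts in shControl and 78 and 72 in shIGF2BP3, while CD14 (55 and 35 against 94 and 64) and CD79A (12 and 4 against 5 and 11) did not pass. Of the Schwann cell and glia markers NGFR rose by 2.74, and GFAP went from 13 and 19 counts to 0 and 0. S100B and ERBB3 did not pass. Among endothelial markers VWF was tested and did not pass, PECAM1 and KDR had 0 counts, and CDH5 and TEK were seen mostly in 1 library each, with 26 and 3 counts. COL1A1 rose by 1.77, COL3A1 by 1.62 and DCN by 0.32, and LUM fell by 1.09. Of the neuroblastoma markers HAND2 fell by 1.23 and TH by 0.94, and DBH rose by 1.67.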
